A study of Mus musculus with 6 samples.

Results

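Genes whose locus spans 300 kb or more were followed in cultured mouse neurons after knockdown of the histone deacetylase HDAC2 or of the transcription factor Sp3. The members are the rows of the authors' deposited tables whose locus, written as chromosome, start and end, covers 300000 bases or more. There are 818 of them among 23235 rows, or 3.52%. A level of 1 FPKM (fragments per kilobase of transcript, scaled to the mapped fragments of the library) or more in some group was reached by 607 of the 818 long rows (74.2%) and by 13324 of the 22417 shorter rows (59.4%). The longest was Dmd, the dystrophin gene, at 2256181 bases, and the median span of the 607 was 478144 bases, against 24025 bases for the expressed shorter rows. Of the 607, 72 spanned 1 Mb or more.

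The cells were primary cortical and hippocampal neurons of embryonic day 15 mice, grown for 17 days. They received 1 µM cytosine arabinoside (AraC, which kills dividing cells) on culture day 5 and lentivirus carrying short hairpin RNAs on day 12. The 3 groups were control, HDAC2 knockdown and Sp3 knockdown, with 2 RNA sequencing libraries each. The strain, the control virus and whether the 2 libraries came from separate cultures are not given in the labels, so p-values measure only the spread between these libraries. Each group has 1 deposited FPKM per gene, so no SD over libraries is given, and the depth of the libraries is unknown. Hdac2 was listed at 49.4 FPKM in control, 12.3 in its own knockdown and 38.8 in Sp3 knockdown. Sp3 was listed at 15.5 in control, 5.82 in its own knockdown and 26.7 in HDAC2 knockdown.

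Very long genes are made up mostly of introns, and transcribing them takes RNA polymerase II much longer than transcribing an average gene. In the brain many of them encode cell adhesion molecules, receptors, ion channels and synaptic scaffolds, and neurons express more of them than most tissues do. HDAC2 removes acetyl groups from histones and Sp3 binds GC-rich promoter elements called GC boxes.

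The locus column covers the whole block of overlapping genes, so a row can carry a long locus although its own gene is short. The 607 expressed rows lie at 461 distinct loci, and 293 of them share the locus with another row. By the span of the gene itself in the GENCODE M21 annotation, 437 of the 607 are long genes in their own right, 148 are shorter genes inside a long locus and 22 had no match. Of the 148, 57 are clustered protocadherins and 91 are other genes. Of the 314 expressed rows alone at their locus, 311 had a match and 307 of these were long by themselves. Results are therefore given for all long rows and for the 437 genes that are long themselves. Whether reads were assigned by strand is not given in the sources used here, so reads of overlapping genes on opposite strands cannot be told apart.

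Promoter sequences of the long genes with the largest called changes are shown because Sp3 binds GC boxes. They come from RefSeq on build GRCm38.p6 and run from 250 bases before to 50 bases after the start, 5′ to 3′ on the gene's strand. Capitals mark the GC box core, searched as GGGCGG on either strand, which reads CCGCCC on the other; overlapping matches were counted. Among expressed genes with an entry in that table, clone names left out, Cdh12 and Synpr had the largest called rises in Sp3 knockdown, Reln and L3mbtl4 the largest called falls there, Col4a6 the largest called rise in HDAC2 knockdown and Trhde the largest called fall.

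Cdh12, chr15:21111202-21111501, plus strand: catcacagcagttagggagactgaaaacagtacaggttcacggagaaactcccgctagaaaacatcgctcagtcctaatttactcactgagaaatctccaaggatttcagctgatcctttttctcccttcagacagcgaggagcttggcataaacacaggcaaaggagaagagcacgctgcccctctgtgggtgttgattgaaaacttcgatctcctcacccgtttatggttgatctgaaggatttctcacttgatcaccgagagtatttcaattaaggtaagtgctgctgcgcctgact

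Synpr, chr14:13284530-13284829, plus strand: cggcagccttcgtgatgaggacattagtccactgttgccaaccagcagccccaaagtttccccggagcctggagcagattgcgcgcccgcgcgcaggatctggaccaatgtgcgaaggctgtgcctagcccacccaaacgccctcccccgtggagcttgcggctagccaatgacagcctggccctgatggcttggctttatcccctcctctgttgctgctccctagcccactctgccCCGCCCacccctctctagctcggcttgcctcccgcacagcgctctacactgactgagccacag

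Reln, chr5:22344656-22344955, minus strand: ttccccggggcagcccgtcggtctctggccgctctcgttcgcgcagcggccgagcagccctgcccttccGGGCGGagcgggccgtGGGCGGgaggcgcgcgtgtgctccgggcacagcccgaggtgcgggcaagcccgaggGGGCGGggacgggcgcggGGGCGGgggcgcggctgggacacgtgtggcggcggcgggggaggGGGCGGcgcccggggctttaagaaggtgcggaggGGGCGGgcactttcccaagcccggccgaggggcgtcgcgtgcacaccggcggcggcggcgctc

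L3mbtl4, chr17:68273547-68273846, plus strand: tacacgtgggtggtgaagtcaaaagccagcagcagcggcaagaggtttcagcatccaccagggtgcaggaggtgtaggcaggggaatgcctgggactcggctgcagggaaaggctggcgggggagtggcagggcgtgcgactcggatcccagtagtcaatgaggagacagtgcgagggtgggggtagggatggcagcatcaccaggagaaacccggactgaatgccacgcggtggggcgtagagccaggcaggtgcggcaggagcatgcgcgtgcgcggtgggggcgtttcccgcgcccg

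Col4a6, chrX:141474027-141474326, minus strand: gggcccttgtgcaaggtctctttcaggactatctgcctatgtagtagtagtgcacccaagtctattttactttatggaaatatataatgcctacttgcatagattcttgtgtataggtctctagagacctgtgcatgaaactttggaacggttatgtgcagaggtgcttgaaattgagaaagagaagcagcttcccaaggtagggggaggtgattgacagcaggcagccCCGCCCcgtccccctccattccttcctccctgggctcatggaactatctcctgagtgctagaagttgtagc

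Trhde, chr10:114802253-114802552, minus strand: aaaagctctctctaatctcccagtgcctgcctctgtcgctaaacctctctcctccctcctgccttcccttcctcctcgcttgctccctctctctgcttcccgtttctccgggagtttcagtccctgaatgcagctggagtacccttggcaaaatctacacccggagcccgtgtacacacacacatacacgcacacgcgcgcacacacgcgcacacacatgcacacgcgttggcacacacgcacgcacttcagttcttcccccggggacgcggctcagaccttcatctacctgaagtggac

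The core was found in 1 place in the Synpr promoter, in 6 places in the Reln promoter and in 1 place in that of Col4a6, and these letters do not occur in the windows of Cdh12, L3mbtl4 and Trhde. The Reln window was 80.7% G and C and that of Cdh12 46.7%. Of all 32851 promoters in the table, 35.7% hold the core, as do 62.7% of the promoters of expressed shorter genes and 49.3% of those found for expressed long rows. Only 388 of the 607 expressed long rows (63.9%) matched an entry, fewer than 80%, so a comparison of the long genes' promoters with others is void.

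In Sp3 knockdown the long genes were shifted upward as a group. The ratio of knockdown to control FPKM was expressed as log2 and centred, that is, reduced by the median over all expressed genes, because that median lay at -0.13 in Sp3 and 0.32 in HDAC2 knockdown. A gene is said here to have risen or fallen when its centred ratio passed a Benjamini-Hochberg adjusted p of 0.05. That p was normal and two-sided, with the standard error (SE) implied by the deposited statistic, and adjusted over all genes tested. By this test 245 of 582 long rows rose (42.1%) and 43 fell (7.39%), where 20.6% of all genes tested rose and 17.9% fell. The median centred log2 ratio of the long rows was 0.27, with 75.4% of them above 0, and that of the shorter rows -0.01. Among genes long in their own right, 204 of 428 rose and 37 fell, with a median of 0.31. Rows alone at their locus had a median of 0.32.

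By the authors' own call, a deposited q under 0.05 with no centring, 190 of 586 long rows were higher in Sp3 knockdown (32.4%) and 75 lower (12.8%), where 13.5% of all genes tested were higher and 26.5% lower. On the authors' scale the balance of higher to lower calls among long rows was thus the reverse of that over all genes. Set against shorter genes in the same of 10 classes of control FPKM, the long rows lay higher by a median of 0.29 on the log2 scale.

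In HDAC2 knockdown the centred ratios of the long rows lay near those of all genes. Among 569 long rows, 60 rose (10.5%) and 54 fell (9.49%), where 10.1% of all genes rose and 7.9% fell. The median centred log2 ratio was -0.03 for all long rows and 0.02 for genes long in their own right. The authors' call found 163 of 573 long rows higher (28.4%) and 19 lower (3.32%), where 24.9% of all genes were higher and 3.6% lower. The long rows join unlike parts. By that call 139 of 420 genes long in their own right were higher (33.1%) and 18 of 138 shorter genes inside a long locus (13.0%). The latter include most of the clustered protocadherins, of which 1 of 59 was higher. Without these, 17 of 81 of the shorter genes inside a long locus were higher (20.99%). The difference between the knockdowns was tested for each gene, as the difference of the centred ratios over its SE with Benjamini-Hochberg adjustment. Of 565 long rows, 102 were higher in Sp3 than in HDAC2 knockdown (18.1%) and 25 were higher in HDAC2 knockdown (4.42%), where the shares over all genes were 7.06% and 7.7%. Both comparisons use the same control libraries.

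The median ratio in Sp3 knockdown went up with span across 6 classes. It was -0.06 for loci under 10 kb, -0.03 at 10 to 30 kb, 0.02 at 30 to 100 kb, 0.09 at 100 to 300 kb, 0.26 at 300 to 600 kb and 0.30 at 600 kb or more. With the gene's own span in place of the locus, the medians of the last 2 classes were 0.22 and 0.41, and 59.3% of genes spanning 600 kb or more rose while 3.7% fell. In HDAC2 knockdown the medians of the same own-span classes were -0.004 and 0.08. Among genes long in their own right, the order of span and the order of the ratio were only weakly related (Spearman's rho across 431 genes 0.11 in Sp3 knockdown and 0.01 across 434 genes in HDAC2 knockdown). Genes within a library are not independent replicates.

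**Figure D1:**
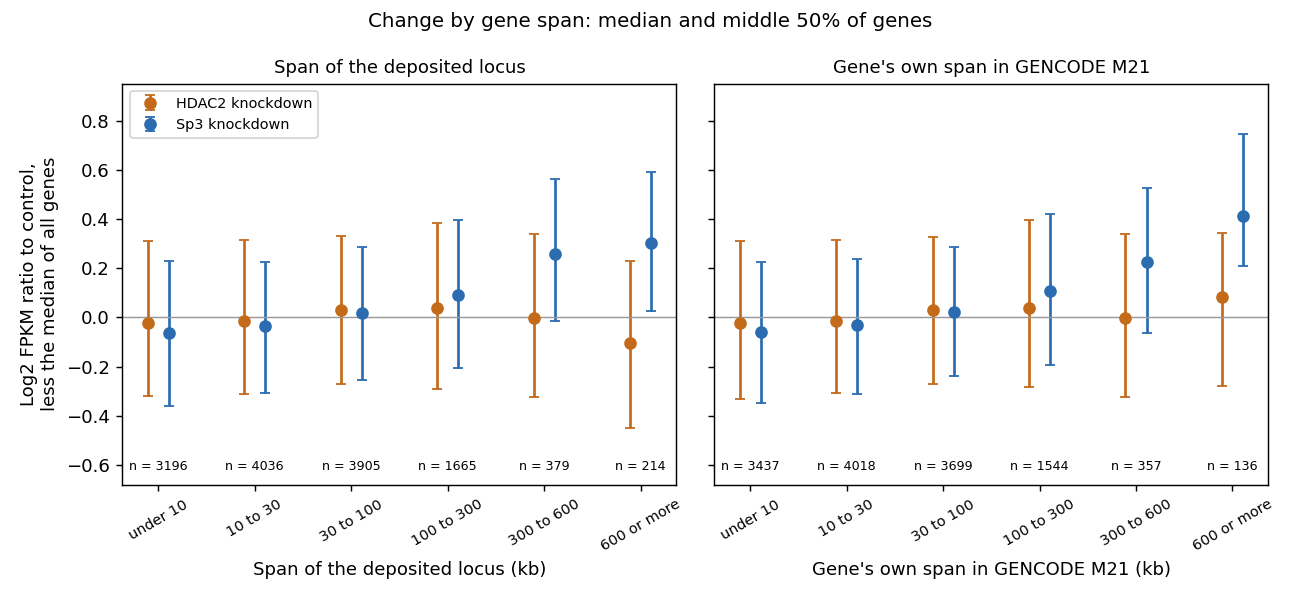
Centred log2 FPKM ratio to control (vertical axis) in 6 classes of span in kb (horizontal axis), by the deposited locus on the left and by the gene's own span on the right. Points are medians, bars reach the middle 50% of genes, and n counts genes in the Sp3 comparison; the Sp3 medians go from -0.06 to 0.30 on the left and from -0.06 to 0.41 on the right, and those of HDAC2 knockdown lie between -0.11 and 0.08.

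In Sp3 knockdown long loci lay above the shortest ones in each class of control FPKM from 1 upward. At 1 to 5 FPKM in control the median was 0.24 for loci of 300 to 600 kb and -0.05 for those under 10 kb. At 5 to 20 FPKM it was 0.21 and -0.08, and at 20 FPKM or more 0.32 and -0.07. In HDAC2 knockdown the medians of loci of 300 to 600 kb were 0.14, -0.03 and -0.12 in these classes. Those of loci under 10 kb were 0.04, -0.06 and -0.08. Long genes also make longer transcripts, with a median longest transcript of 5887 bases against 3311 bases for shorter rows. Medians in Sp3 knockdown were also taken within classes of transcript length. For genes long in their own right they were 0.30 at 2000 to 4000 bases and 0.35 at 4000 to 6000. They were 0.30 at 6000 to 8000 and 0.28 above 8000. Shorter genes with transcripts of those lengths had medians of -0.02, 0.02, 0.04 and 0.07.

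The summed FPKM of cell type markers differed between the groups as well. Markers of neurons summed to 1918 FPKM in control, 1979 in HDAC2 and 2335 in Sp3 knockdown, and their median centred log2 ratio was -0.33 in HDAC2 and 0.50 in Sp3 knockdown. Markers of astrocytes summed to 787, 2266 and 685 FPKM, those of the oligodendrocyte lineage to 226, 452 and 131, and those of dividing cells to 115, 124 and 61.3. Of 10 markers of dividing cells 9 fell in Sp3 knockdown, and of 9 tested markers of the oligodendrocyte lineage 7 fell. Of 12 tested astrocyte markers 7 fell and 2 rose there, with a median centred log2 ratio of -0.37. Of 15 neuron markers 7 rose and 0 fell in Sp3 knockdown, where 20.6% of all genes rose and 17.9% fell. Microglial markers summed to 6.61 FPKM in control, with 3 of 12 at 0, and vascular and meningeal markers to 43.95. None of the markers of these other cell types is among the expressed long rows, while 2 of the neuron markers, Syt1 and Rbfox3, are. More neurons and more RNA per neuron cannot be told apart in these bulk samples, and the part of cell makeup in the shift of the long genes was not tested.

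**Figure D2:**
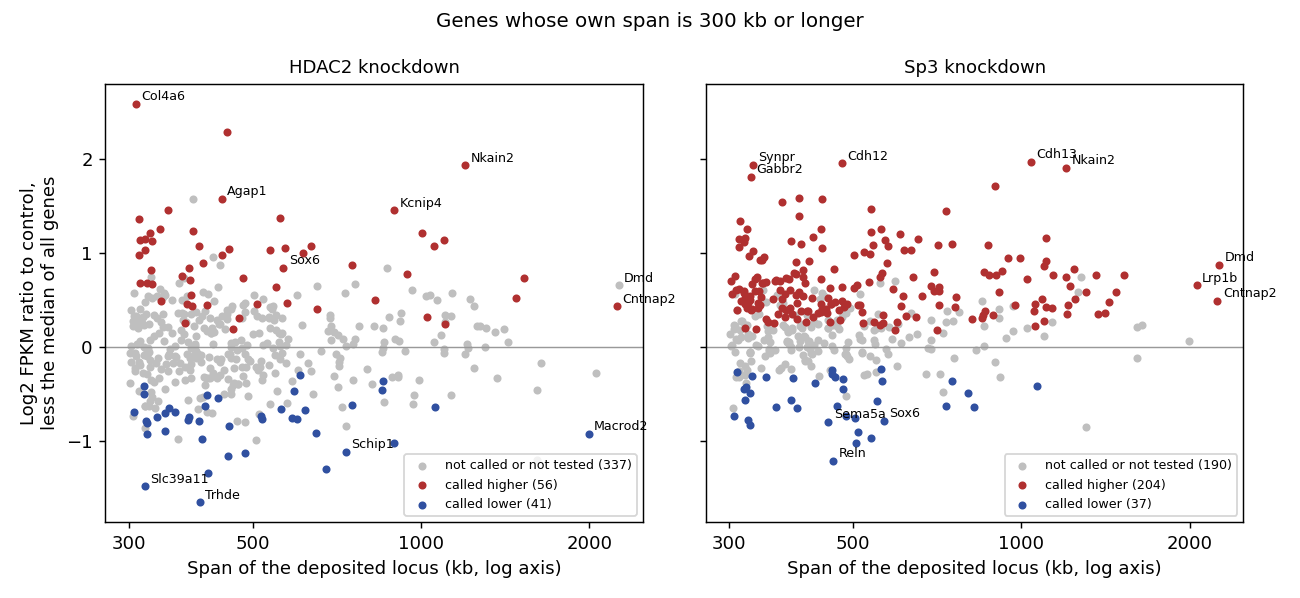
Each point is 1 gene long in its own right, placed by the span of its locus in kb (horizontal log axis) and by its centred log2 FPKM ratio to control (vertical axis), for HDAC2 knockdown on the left and Sp3 knockdown on the right. Red points rose and blue points fell; in Sp3 knockdown 204 red points stand against 37 blue ones, and in HDAC2 knockdown 56 against 41.

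Of the 8 longest rows, Lrp1b, Macrod2 and Flrt3 passed the test of the difference between the knockdowns, and Dmd, Cntnap2, Nrxn3, Csmd1 and Fhit did not. Dmd (mm9 chrX:80194209-82450389), whose protein ties the cytoskeleton to the membrane, was at 4.46 FPKM in control, 8.81 in HDAC2 knockdown and 7.44 in Sp3 knockdown. Its centred log2 ratio was 0.66 ± 0.28 (SE) in HDAC2 and 0.87 ± 0.10 in Sp3 knockdown, and it rose in the latter. Cntnap2 (mm9 chr6:45010060-47251370), an axonal adhesion molecule, was at 19.7, 33.4 and 25.3 FPKM and rose in both, by 0.44 ± 0.16 and 0.49 ± 0.09. Lrp1b (mm9 chr2:40452293-42509118), a large lipoprotein receptor, was at 11.1, 11.5 and 16 FPKM and rose in Sp3 knockdown by 0.66 ± 0.12. Macrod2 (mm9 chr2:140221166-142215786), an enzyme of ADP-ribose metabolism, fell in HDAC2 knockdown from 10.6 to 6.98 FPKM, by 0.92 on the centred log2 scale, and stood at 10.1 in Sp3 knockdown. Nrxn3 (34.8, 31.7 and 36.9 FPKM), Csmd1 (20.7, 23.2 and 22.4) and Fhit (1.08, 0.587 and 0.906) passed the test in neither knockdown. Flrt3, at 34.8, 39.2 and 45.2 FPKM, is listed among the longest only because it lies inside the Macrod2 locus, and it rose in Sp3 knockdown by 0.51 ± 0.09.

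The most abundant long genes could not be resolved. Nell2, a secreted neuronal glycoprotein, was at 342 FPKM in control, Dner, a neuronal transmembrane protein, at 276, and Syt1, the calcium sensor of vesicle release, at 239. Their implied SE ran from 0.55 to 1.08 in the 2 comparisons, against a median over all genes of 0.14 in Sp3 and 0.26 in HDAC2 knockdown. Syt1 stood at 184 FPKM in HDAC2 and 322 in Sp3 knockdown without passing either test. Cadm1, a synaptic adhesion molecule at 223, 262 and 278 FPKM, was not tested by the authors.

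Adhesion molecules hold synapses and axons together. Of the 40 synaptic and neuronal adhesion molecules among the long rows, 23 of 38 tested rose in Sp3 knockdown (60.5%) and 0 fell. Their median there was 0.46, with 38 of 40 above 0, where 20.6% of all genes rose and 17.9% fell. In HDAC2 knockdown 3 rose and 3 fell of 39 (7.69% each), with a median of -0.15. The shares over all genes were 10.1% and 7.9%. Nlgn1 (mm9 chr3:25330763-26230831), the postsynaptic partner of neurexins, was at 45.4 FPKM in control, 60.3 in HDAC2 and 70.2 in Sp3 knockdown, and its centred log2 ratio was 0.09 ± 0.09 in HDAC2 and 0.76 ± 0.04 in Sp3 knockdown. The difference between its ratios passed the test. The contactin Cntn5 went from 12.5 to 21.1 and 20.2 FPKM and rose in Sp3 knockdown by 0.83 ± 0.10. The teneurin Odz3 went from 24.3 to 65 and 35.6 FPKM and rose in both, by 1.09 ± 0.11 in HDAC2 and 0.68 ± 0.08 in Sp3 knockdown. Clstn2, a calsyntenin, went from 33.8 to 25.1 FPKM in HDAC2 knockdown, a fall, and to 47.4 in Sp3 knockdown, a rise. Cntnap5a was at 10.7, 6.59 and 8.71 FPKM and fell in HDAC2 knockdown. Shorter adhesion molecules moved alike in Sp3 knockdown: 15 of 30 rose and 1 fell, with a median of 0.41.

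Cadherins are calcium-dependent adhesion molecules, and the 2 largest rises in Sp3 knockdown among expressed long genes, clone names left out, were theirs. Cdh13 (mm9 chr8:120807655-121847348) was at 58.5 FPKM in control, 108 in HDAC2 and 209 in Sp3 knockdown, a centred log2 ratio of 1.97 ± 0.12 in Sp3 knockdown. Cdh12 (mm9 chr15:21041207-21519288) was far lower, at 1.35, 2.1 and 4.78 FPKM, with a ratio of 1.96 ± 0.17. Both were highest in Sp3 knockdown and in between in HDAC2 knockdown, where neither passed the centred test. Cdh8 (12.6, 23.1 and 25.1 FPKM) and Pcdh11x (17.3, 43.4 and 32.3) rose in both knockdowns. In all, 7 of 12 long cadherins, protocadherins and catenins rose in Sp3 knockdown (58.3%) and 0 fell, with a median of 0.62. In HDAC2 knockdown 3 of the 12 rose (25%) and 0 fell. Over all genes 20.6% rose and 17.9% fell in Sp3 knockdown, and 10.1% rose and 7.9% fell in HDAC2 knockdown.

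Axon guidance genes and receptor tyrosine phosphatases steer growing neurites. Of 23 long ones, 13 rose (56.5%) and 2 fell (8.7%) in Sp3 knockdown, with a median of 0.49. The shares over all genes were 20.6% and 17.9% there. In HDAC2 knockdown 1 of the long ones rose and 1 fell (4.35% each), where 10.1% of all genes rose and 7.9% fell. Shorter guidance genes had 14 of 23 rising and 2 falling in Sp3 knockdown, with a median of 0.42, and 6 of 23 rising and 0 falling in HDAC2 knockdown. The ligand Slit2 (mm9 chr5:48374394-48697017) went from 11.6 FPKM to 18.5 in HDAC2 and 25.3 in Sp3 knockdown, and rose in the latter by 1.26 ± 0.10. Among receptors, Epha3 was at 8.71, 13.7 and 17.2 FPKM, Ptprd at 42.8, 83.9 and 86.8, and Dcc, a netrin receptor, at 9.97, 27.6 and 16.6. All 3 rose in Sp3 knockdown and Dcc also in HDAC2 knockdown. Reln and Sema5a went the other way. Reln (mm9 chr5:21390272-21850523) encodes reelin, a secreted matrix protein that guides neuronal layering. It was at 28.2 FPKM in control, 26.6 in HDAC2 and 11.1 in Sp3 knockdown, a fall by 1.21 on the centred log2 scale (SE 0.20). The semaphorin Sema5a (mm9 chr15:32174568-32626096) fell in both, from 6.3 to 3.54 and 3.32 FPKM.

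Ion channels set the firing of neurons. Of 20 long potassium, sodium and other channel genes, 15 rose and 1 fell in Sp3 knockdown, with a median of 0.45. The 20 shorter ones had a median of 0.08, with 6 rising and 0 falling. In HDAC2 knockdown 1 long channel gene rose (5%) and 4 fell (20%), where 10.1% of all genes rose and 7.9% fell. Kcnip4 (mm9 chr5:48780742-49676898), a subunit that binds Kv4 potassium channels, was at 2.52 FPKM in control, 8.65 in HDAC2 and 7.54 in Sp3 knockdown, and rose in both by 1.45 ± 0.24 and 1.71 ± 0.21. Kcnq5, of the M-current family, was at 22.2, 34.4 and 34.9 FPKM and rose in Sp3 knockdown. Kcnt2, a sodium-activated potassium channel, fell in HDAC2 knockdown to 9.6 FPKM from 11.8 and rose in Sp3 knockdown to 17.3. Kcnip1, a relative of Kcnip4, fell in Sp3 knockdown, from 5.17 to 3.04 FPKM. Among 12 long calcium channel and calcium release genes, 3 rose (25%) and 1 fell (8.33%) in Sp3 knockdown, where 20.6% of all genes rose and 17.9% fell. Their median there was 0.32, with 10 of 12 above 0. In HDAC2 knockdown 1 of them rose (8.33%) and 0 fell, with a median of -0.16. Of 14 shorter calcium genes 6 rose and 1 fell in Sp3 knockdown, with a median of 0.31. The channel subunit Cacnb2 (4.68, 6.09 and 7.08 FPKM) rose in Sp3 knockdown and the pore subunit Cacna1d (10.5, 11.8 and 9.21) passed neither centred test.

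Receptors for transmitters rose broadly in Sp3 knockdown, 15 of 21 long ones (71.4%) with 0 falls and a median of 0.46. The shares over all genes were 20.6% rising and 17.9% falling. In HDAC2 knockdown 2 rose and 1 fell of 20 tested (10% and 5%), where 10.1% of all genes rose and 7.9% fell. Gabbr2 (mm9 chr4:46676770-47004586), a subunit of the GABA-B receptor, was at 27.8 FPKM in control, 81 in HDAC2 and 89.2 in Sp3 knockdown, and rose by 1.22 ± 0.38 and 1.81 ± 0.11. The AMPA receptor subunit Gria4 was at 35.4, 53.1 and 48 FPKM and rose in both. The kainate receptor subunit Grik4 (3.98, 5.11 and 8.21 FPKM) and the metabotropic receptor Grm7 (30.6, 49.2 and 48.9) rose in Sp3 knockdown and did not pass the test in HDAC2 knockdown. The NMDA receptor subunits Grin2b (90.2, 79.8 and 84.9 FPKM) and Grin2a (42.6, 32.9 and 35.1) passed neither centred test. Ntrk3, the neurotrophin-3 receptor, was at 57.6, 61.1 and 80.3 FPKM and rose in Sp3 knockdown by 0.61 ± 0.06.

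Synaptic scaffolds and vesicle proteins hold the release sites and the postsynaptic density together. Of 29 long ones, 17 rose (58.6%) and 1 fell (3.45%) in Sp3 knockdown, with a median of 0.34. The shares over all genes were 20.6% and 17.9% there. In HDAC2 knockdown 4 rose and 5 fell of 27 tested (14.8% and 18.5%), where 10.1% of all genes rose and 7.9% fell. Agap1 (mm9 chr1:91351386-91791857), a GTPase-activating protein of membrane traffic, was at 17.4 FPKM in control, 65.1 in HDAC2 and 47.3 in Sp3 knockdown, with the same centred ratio of 1.58 in both (SE 0.21 and 0.08). Frmpd4, which binds the scaffold PSD-95, was at 6.54, 10.4 and 13.4 FPKM and Dlg2, a PSD-95 relative, at 55.7, 77.8 and 86.4; both rose in Sp3 knockdown. The active zone protein Pclo (26.7, 20.5 and 29.9 FPKM) and the glutamate receptor adaptor Grip1 (14.1, 11.1 and 16.3) fell in HDAC2 and rose in Sp3 knockdown. Cadps2, which primes dense-core vesicles, rose in HDAC2 knockdown, from 10.4 to 18 FPKM, and was at 9.04 in Sp3 knockdown. Dlgap2, a postsynaptic scaffold at 18.1, 14.8 and 12.9 FPKM, fell in both.

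In HDAC2 knockdown 3 long kinases, phosphodiesterases and second messenger genes rose and 3 fell of 29 (10.3% each). The shares over all genes were 10.1% and 7.9%. In Sp3 knockdown 15 of 30 tested rose (50%) and 2 fell (6.67%), where 20.6% of all genes rose and 17.9% fell. Cdk14, a cyclin-dependent kinase of Wnt signalling, was at 14.5, 12.1 and 27.8 FPKM and Dgkb, a diacylglycerol kinase, at 9.19, 21.2 and 18. The phosphodiesterase Pde7b fell in Sp3 knockdown, from 1.96 to 1.01 FPKM. Of 11 growth factor and receptor genes 7 rose and 2 fell there. Among those that rose, the neuregulin Nrg3 was at 13.5, 19.9 and 23.2 FPKM and the sorting receptor Sorcs1 at 6.24, 9.71 and 11.3. The neuregulin receptor Erbb4 fell in Sp3 knockdown, from 13.2 to 9.06 FPKM, and stood at 23.5 in HDAC2 knockdown. Of 32 genes of lipoprotein receptors, matrix and sugar-modifying enzymes, 19 rose and 0 fell in Sp3 knockdown, with a median of 0.43 against 0.05 for 65 shorter ones. In HDAC2 knockdown 8 of 31 rose and 0 fell, with a median of 0.12 against 0.23 for shorter ones. Hs6st3, which sulfates heparan chains, was at 9.24, 17.3 and 22.9 FPKM, and Adamts17, a secreted protease, at 2.34, 7.54 and 4.71.

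Long genes for transcription and RNA regulators included both rises and falls. Of 38 long transcription factor and chromatin genes, 15 rose and 6 fell in Sp3 knockdown (39.5% and 15.8%). Over all genes 20.6% rose and 17.9% fell there. The long ones had a median of 0.20 and shorter ones 0.02. In HDAC2 knockdown 7 rose and 2 fell of 35 (20% and 5.71%), where 10.1% of all genes rose and 7.9% fell. Dach2 was at 4.32, 6.2 and 10.9 FPKM and the neuronal factor Myt1l at 27.3, 34.6 and 46.7, and both rose in Sp3 knockdown. Sox6 (mm9 chr7:122614858-123182258) rose in HDAC2 knockdown, from 9.86 to 22.2 FPKM, and fell in Sp3 knockdown, to 5.21. Nfia (mm9 chr4:97234566-97785567) did the same, at 8.84, 17.3 and 5.41 FPKM. The difference between the knockdowns was 1.63 for Sox6 and 1.22 for Nfia on the log2 scale, and both differences passed the test. Among RNA-binding proteins, Rbfox1 (mm9 chr16:5884886-7412573), a neuronal splicing regulator, rose in both, from 12.9 to 26.8 and 20 FPKM. Khdrbs2, another splicing regulator, fell in both, from 10.9 to 6.23 and 5.98. The 6 long genes of that group, of which 2 rose and 2 fell, had a median of -0.10 in Sp3 knockdown. It was the only one of the 14 roles below 0.

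The calcium release channel Itpr2 (3.33, 9.82 and 2.42 FPKM) and Utrn, a relative of dystrophin (4.22, 8.8 and 3.05), also rose in HDAC2 and fell in Sp3 knockdown. Sox6, Nfia and Itpr2 are known from glial cells and their precursors as well as from neurons. Beside them, the summed astrocyte markers were 787 FPKM in control, 2266 in HDAC2 and 685 in Sp3 knockdown, and the part of glial cells in these 4 genes was not tested. Cytoskeletal and adaptor genes as a whole showed little shift in Sp3 knockdown, with 8 rising and 5 falling of 29. Their median was 0.08 against 0.11 for shorter ones. Their shares were 27.6% and 17.2%, against 20.6% and 17.9% over all genes in Sp3 knockdown. The guanine exchange factor Dock1 fell there, from 9.83 to 5.33 FPKM, and the kinesin Kif26b rose, from 5.34 to 10.4.

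**Figure D3:**
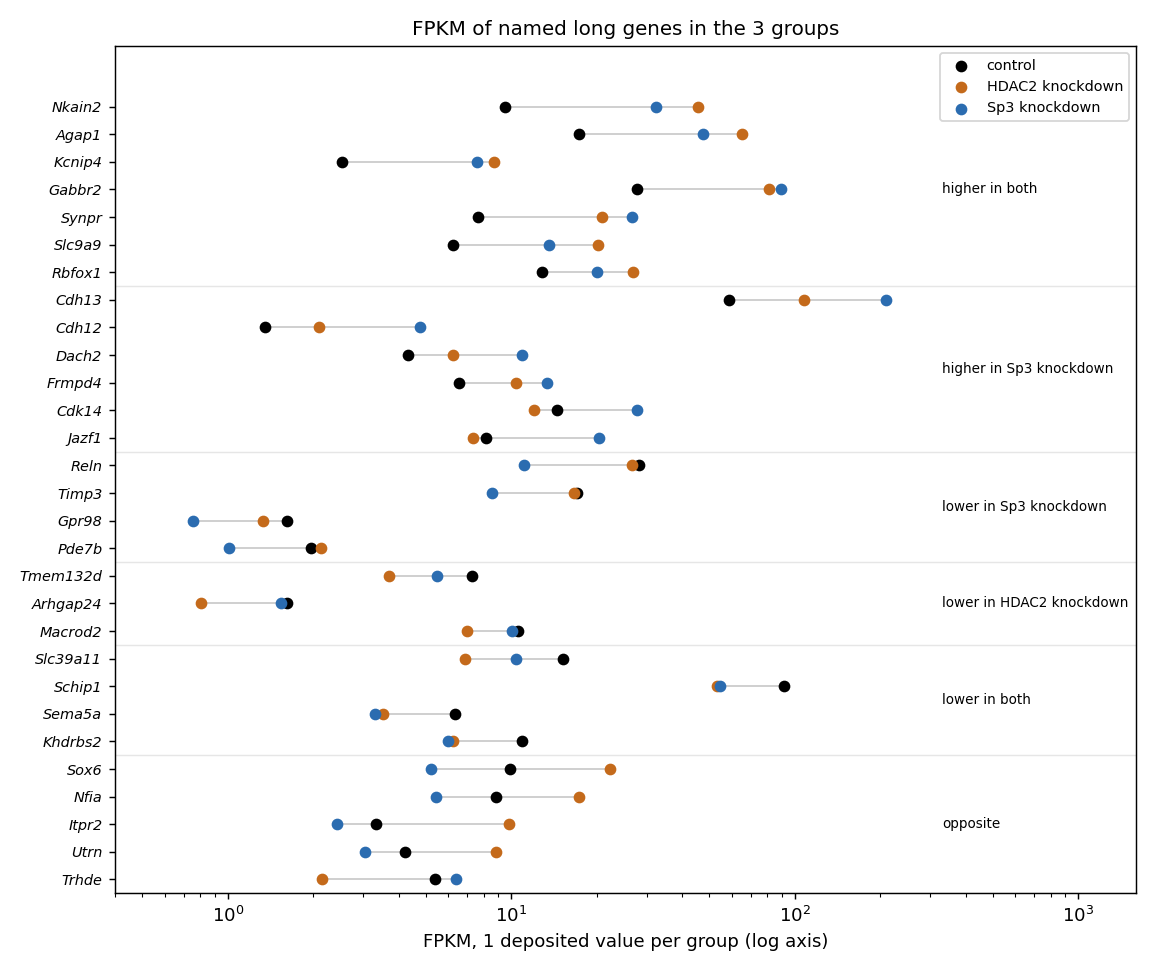
FPKM (horizontal log axis) of named genes with a long locus, 1 deposited value per group. Black points are control, orange HDAC2 knockdown and blue Sp3 knockdown. Timp3 (49135 bases) and Jazf1 (299835) are shorter by their own span. Genes are ordered by the centred test they passed; Cdh13 goes from 58.5 to 209 FPKM in Sp3 knockdown, Reln from 28.2 to 11.1, and Sox6 stands at 22.2 in HDAC2 and 5.21 in Sp3 knockdown.

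A mixed role of genes often listed at fragile sites and enzymes, which also takes in transporters, included large changes in both directions. Nkain2 (mm9 chr10:31409125-32609721), which encodes a protein that interacts with the sodium pump, was at 9.49 FPKM in control, 45.4 in HDAC2 and 32.5 in Sp3 knockdown, with centred ratios of 1.93 ± 0.27 and 1.91 ± 0.11. The sodium-proton exchanger Slc9a9 was at 6.22, 20.2 and 13.5 FPKM and rose in both. The bicarbonate transporter Slc4a4 went from 14.6 to 50.3 FPKM in HDAC2 knockdown and was at 16 in Sp3 knockdown, passing the centred test in both, with 1.46 ± 0.27 and 0.27 ± 0.06. The zinc transporter Slc39a11 (mm9 chr11:113106169-113427129) fell in both, from 15.3 to 6.85 and 10.3 FPKM, and Tmem132d fell in HDAC2 knockdown, from 7.27 to 3.72. Of 51 long genes of this mixed role, 20 rose (39.2%) and 4 fell (7.84%) in Sp3 knockdown, where 20.6% of all genes rose and 17.9% fell. In HDAC2 knockdown 5 rose and 5 fell of 50 (10% each), where 10.1% of all genes rose and 7.9% fell.

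Several changed genes fell outside these roles. Synpr (mm9 chr14:14117294-14447983), a synaptic vesicle membrane protein, was at 7.61 FPKM in control, 20.8 in HDAC2 and 26.6 in Sp3 knockdown. It rose by 1.13 ± 0.19 and 1.94 ± 0.12. Fam189a1 was at 5.75, 15.2 and 15.7 FPKM and rose in both. Col4a6, a basement membrane collagen, was at 0.204 FPKM in control and 1.54 in HDAC2 knockdown, so it entered the expressed rows only through the group where it was high. Trhde (mm9 chr10:113835877-114238426), the enzyme that degrades thyrotropin-releasing hormone, fell in HDAC2 knockdown from 5.38 to 2.15 FPKM, by 1.65 on the centred log2 scale (SE 0.28), and rose in Sp3 knockdown to 6.39, by 0.38 ± 0.12. Schip1, which binds the membrane protein schwannomin, fell in both, from 91.8 to 53.1 and 54.4 FPKM. Gpr98, a very large adhesion receptor, fell in Sp3 knockdown from 1.61 to 0.752 FPKM.

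Shorter genes of the same roles are shown beside the long ones. In Sp3 knockdown the median of the long genes was above 0 in 13 of 14 roles and above that of the shorter genes in 12 of 14. In HDAC2 knockdown the long median was above 0 in 8 of 14 roles and above the shorter one in 6.

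**Figure D4:**
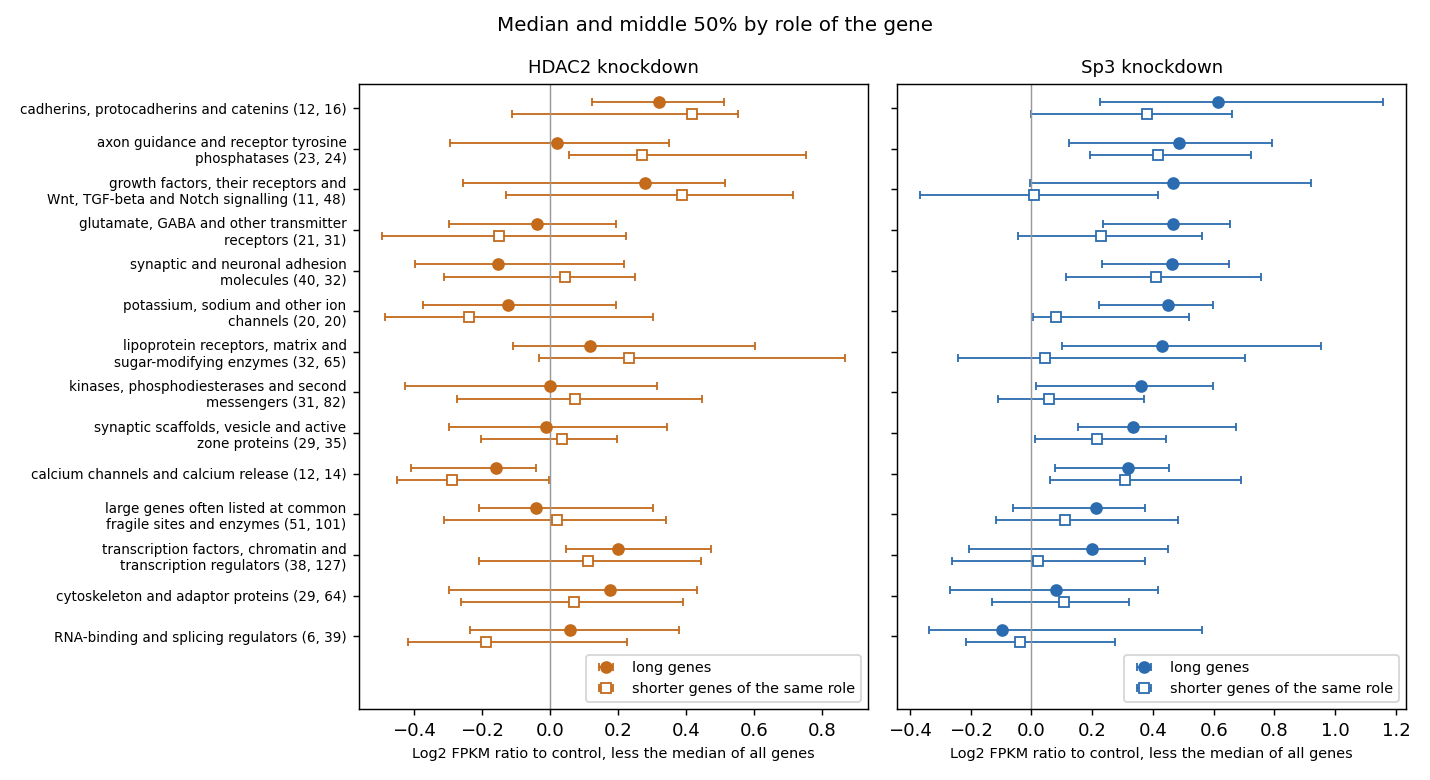
Centred log2 FPKM ratio to control (horizontal axis) by role of the gene, as the median with the middle 50% of genes; filled circles are long genes and open squares shorter genes of the same role, with their numbers in the Sp3 comparison in brackets. In Sp3 knockdown the filled circle lies to the right of the square in 12 of 14 roles and in HDAC2 knockdown in 6 of 14.

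Families grouped by gene symbol compare long and shorter members of related function. Across all families, 127 long members had a median centred log2 ratio of 0.43 in Sp3 knockdown and 959 shorter members 0.07. The long median was the higher one in 15 of 18 families with at least 3 members on each side, and in 11 of 18 in HDAC2 knockdown. In Sp3 knockdown the 9 long cadherins and protocadherins had a median of 1.03 and the 16 shorter ones 0.46. The 4 long ephrin receptors had a median of 0.83 there and the 8 shorter ones 0.34. The 13 long glutamate receptors had 0.46 against 0.21 for 11 shorter ones. Guidance genes of the Robo, Slit, Unc5, netrin and Dcc families were nearly level in Sp3 knockdown, at 0.49 and 0.51. Long transporters of the Slc families lay at 0.002 there and 218 shorter ones at 0.10.

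**Figure D5:**
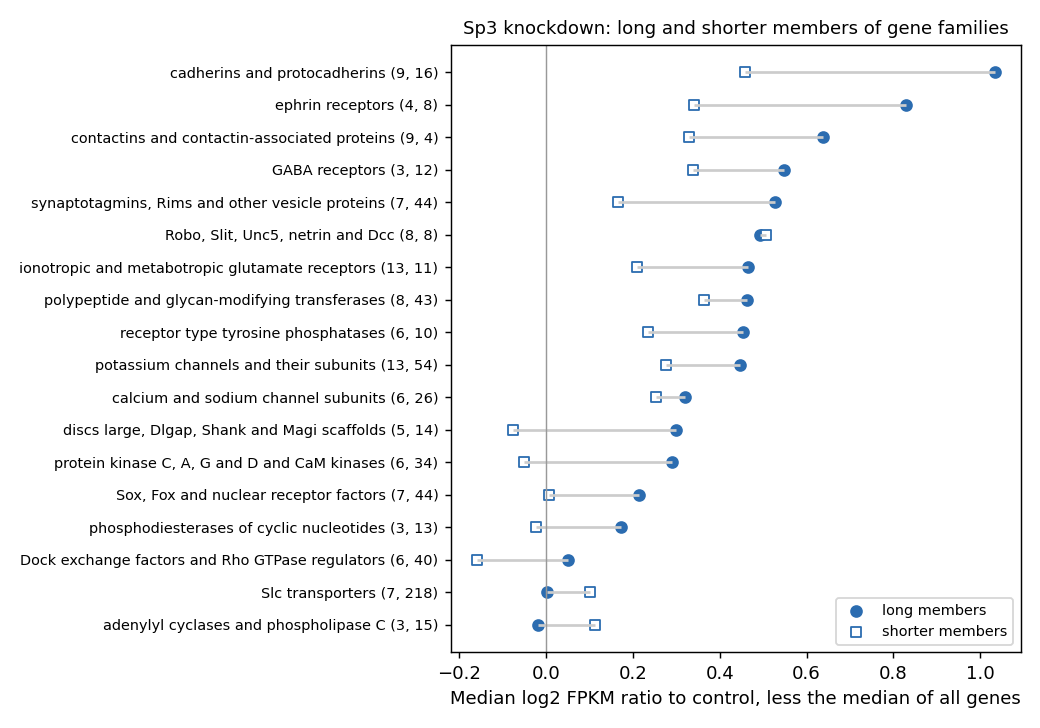
Median centred log2 FPKM ratio to control in Sp3 knockdown (horizontal axis) for 18 gene families, with filled circles for long and open squares for shorter members and their numbers in brackets. Long members lie to the right in 15 of 18 families, furthest in the cadherins and protocadherins at 1.03 against 0.46.

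Genes that only share a long locus did not all follow the long gene. There were 19 pairs of a long gene and a shorter gene inside its locus, leaving out clone names, microRNAs and clustered genes. In Sp3 knockdown the 19 long genes had a median of 0.20 and the 19 inner genes 0.15, and the long gene was the higher of the pair in 9 of 19 pairs. At the Syn3 locus, Syn3, a synapsin of synaptic vesicles, rose from 3.54 to 4.65 FPKM in Sp3 knockdown while the inner gene Timp3, an inhibitor of matrix proteases, fell from 17.1 to 8.52. At the Epha6 locus the ephrin receptor Epha6 rose from 19.7 to 34.7 FPKM while Arl6, a ciliary GTPase, stood at 14.5 and 14.0. The reverse was seen at the Dock1 locus, where Dock1 fell and the inner gene Fam196a rose from 3.01 to 3.79 FPKM. At the Immp2l locus the inner gene Lrrn3, a neuronal leucine-rich repeat protein, rose from 65.1 to 99.6 FPKM while Immp2l, a mitochondrial peptidase subunit, stood at 1.41 and 0.715 and did not pass the test. The 83 inner rows expressed in the Sp3 comparison, clustered protocadherins left out, had a median of 0.27. Of 78 tested, 24 rose (30.8%) and 2 fell (2.56%), where 20.6% of all genes rose and 17.9% fell.

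The clustered protocadherins give 59 expressed rows that share 1 locus and were shifted the other way in HDAC2 knockdown. They encode adhesion molecules whose random choice gives each neuron its own surface identity. In HDAC2 knockdown 11 of 59 fell (18.6%) and 0 rose, where 7.9% of all genes fell and 10.1% rose. Their median there was -0.44, with 10 of 59 above 0. In Sp3 knockdown 14 rose (23.7%, near the 20.6% of all genes) and 2 fell, with a median of 0.11. Pcdhb6 was at 7.52 FPKM in control, 4.13 in HDAC2 and 8.21 in Sp3 knockdown. Pcdhac2 was at 25.6, 33.3 and 46.5 FPKM. Rows of the alpha and gamma clusters share their last exons and members of a cluster resemble each other, so the split of reads among them is uncertain.

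Near the threshold, Jazf1 (300557 bases), Cntn3 (301362) and Ranbp17 (301953) were just inside, and Pde1c (299831), Akap13 (299076) and Nxph1 (298560) just outside. By the gene's own span in GENCODE M21, Jazf1 is shorter (299835 bases), and Pde1c (499300) and Nxph1 (300602) are long. The shorter rows, picked by locus, thus include some genes long in their own right. Jazf1 was at 8.17, 7.34 and 20.4 FPKM, Cntn3 at 6.39, 6.16 and 6.43, and Ranbp17 at 2.77, 3.32 and 2.56. Pde1c was at 1.21, 1.49 and 1.21, Akap13 at 4.998, 6.46 and 3.21, and Nxph1 at 13.3, 24.3 and 19.5.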

How the data were processed

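RNA sequencing of 6 libraries, 2 per group, was compared through 2 tables, each knockdown against the shared control. TopHat, Bowtie and Cuffdiff on the mouse build mm9 are named in the submitters' processing notes; no version, annotation or strand setting was found in the labels or headers. As deposited, each of the authors' tables has 1 FPKM per gene and group, a test statistic (a score whose sign is opposite to the ratio and was reversed here), a p-value and a q-value, per the file headers. Log2 ratios were computed from the FPKM values, with no pseudocount, and the SE of a ratio is the ratio over the reversed statistic (values over 5 were left out). How deeply each library was sequenced is unknown from FPKM alone, and no counting interval is given.

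The genes were taken as expressed at 1 FPKM or more in either group of a comparison. The authors' calls are rows with status OK and q under 0.05. Gene spans and transcript lengths come from GENCODE M21 (GRCm38), matched by name or RefSeq synonym for 22681 rows, and coordinates printed for genes are those of the deposited tables. The centred test was checked on simulated data. Tools were Python 3.11.15, pandas 2.3.3, scipy 1.17.1, statsmodels 0.14.6 and matplotlib 3.10.9.

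The members, roles, families and markers were chosen with earlier results of these data known. Named genes are the 8 longest, the 6 most abundant in control, the 8 largest called rises and falls per comparison, the 3 with the smallest p per role, the 4 called in both comparisons per direction and in opposite directions, and the 3 on each side of the span threshold; the text gives a part of them. Further members of a role and inner genes of shared loci were named after their values were seen. Alternatives varied the scaling, q threshold, minimum fold, span, FPKM filter, pseudocount and matching.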

Additional observations from a re-analysis of the deposited data

How the results depend on the processing

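No paired analysis was possible because the tables hold 1 value per group and none per library, and for the same reason no library could be left out in turn. Depth is unknown, so what it limits cannot be stated. By the authors' call the long rows gave 163 higher and 19 lower in HDAC2 knockdown; the numbers were 60 and 54 after centring, 48 and 73 with upper-quartile scaling, 108 and 7 at q under 0.01, 282 and 33 for spans of 200 kb or more, and 71 and 10 for 500 kb or more. In Sp3 knockdown 190 were higher and 75 lower; 43 were lower after centring, 90 were higher and 28 lower with at least 1.5-fold, and the numbers were 290 and 153 at 200 kb or more and 91 and 33 at 500 kb or more. The HDAC2 median of -0.03 was 0.29 without centring, -0.088 with upper-quartile scaling, 0.0227 for single-gene rows also long in GENCODE and 0.0142 without clustered protocadherins. The HDAC2 difference from shorter genes of like control FPKM, -0.04, was 0.0165 for those single-gene rows, 0.0493 within families and 0.00279 with GENCODE spans. Each HDAC2 value thus changed sign under the settings given for it, except the median with upper-quartile scaling. Without clustered protocadherins the HDAC2 difference was -0.000444 and kept its sign. The Sp3 median of 0.27 was 0.14 without centring, 0.22 with upper-quartile scaling, 0.24 with a pseudocount of 1 FPKM and 0.23 at 200 kb or more, and the Sp3 difference of 0.29 was 0.25 at 200 kb or more and 0.36 within families. Changing the span limit also changes the number of rows counted. At 200 kb or more, lower calls in Sp3 knockdown grew by a larger factor (75 to 153) than higher calls (190 to 290). The cause of these changes and of the others was not tested. The GENCODE spans in place of the locus, the exclusion of clustered protocadherins, the classes of transcript length and the control-only FPKM filter were chosen after seeing the data.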

Other observations

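Genes long in their own right without one of the 14 roles rose more often than they fell in Sp3 knockdown but not in HDAC2 knockdown. In Sp3 knockdown 32 of 89 rose (36.0%) and 11 fell (12.4%), with a median centred log2 ratio of 0.20. The shares over all genes were 20.6% and 17.9% there. In HDAC2 knockdown 11 rose and 12 fell of 89 (12.4% and 13.5%), with a median of -0.01, where 10.1% of all genes rose and 7.9% fell. Adam12, a membrane protease, and Adk, adenosine kinase, were picked here after their values were seen. Adam12 was at 8.1 FPKM in control, 24.3 in HDAC2 and 6.36 in Sp3 knockdown, and Adk at 13.8, 18.8 and 8.05.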
